A study of Mus musculus with 9 samples.

Results

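The transcripts described here are those of 36 known mouse target genes of the transcription factor p53 that act outside its own feedback control and outside the core apoptosis machinery. They cover cell cycle arrest, DNA repair, metabolism and death receptors. The genes were chosen by name from knowledge of the p53 pathway, with earlier results of these data known. They were matched by symbol to the Ensembl identifiers of the deposited count tables. All 36 matched a single identifier out of 37310 gene rows, and all 36 were among the 16224 genes with enough counts to test. They were measured by RNA sequencing in 9 libraries of mouse embryonic stem (ES) cells derived from the E14 parental line, which grew without feeder cells in serum and the cytokine LIF.

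The libraries form 3 groups of 3, all collected after 72 h. The ethanol control carried loxP-flanked Zbtb11 alleles (Zbtb11lox/lox) and ERt2-Cre, a recombinase that is active only with its ligand, at the Rosa26 locus, and received the carrier ethanol. The group labelled Zbtb11 KO was the same line given 250 nM 4-hydroxytamoxifen (4OHT), the ligand of ERt2-Cre. The 4OHT control had unmodified Zbtb11 (Zbtb11WT/WT) and Rosa26 (WT) loci and received the same dose of 4OHT. Its contrast with the ethanol control thus mixes cell line and drug. Active Cre and deletion of Zbtb11 occur together in the labelled KO group and in neither control, so effects of the recombinase and of the deletion cannot be told apart. Nothing in the labels tells whether a line is a single clone, or whether replicates are separate cultures. The p-values therefore cover the spread among these libraries only, which may be technical.

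The protein p53 is kept scarce by the ubiquitin ligase Mdm2 and is stabilised when DNA is damaged, when ribosome assembly is disturbed or when cells are stressed in other ways. It then binds response elements near its target genes and raises their transcription. Mouse ES cells hold much p53 protein and lack a lasting G1 arrest, and many target genes are transcribed in them at a low level without added stress.

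Gene counts per library lay between 16909139 and 23544893. The targeted gene Zbtb11 had 348, 359 and 360 CPM (counts per 1e6 counts of the library, after TMM scaling) with ethanol, 369, 386 and 376 CPM in the KO-labelled libraries and 364, 378 and 361 CPM in the 4OHT control. At the level of the whole gene, Zbtb11 reads were thus no fewer under the KO label (log2 fold change 0.09 against the ethanol control, edgeR adjusted p = 0.17). Which exons lie between the loxP sites is not stated, so a whole-gene count is no test of the deletion, and the group keeps the name KO-labelled. Reads assigned to no gene made up 32.7% to 33.8% of the reads in the KO-labelled libraries and 26.4% to 28.7% in the 6 control libraries. Of 10 ES cell markers, whose summed level was 4409 to 4630 CPM with ethanol, 4212 to 4518 CPM in the KO-labelled libraries and 4530 to 5154 CPM in the 4OHT control, 2 fell in the KO-labelled libraries against the ethanol control and 4 against the 4OHT control. Markers of other cell types summed to far lower levels than those of ES cells in every library. The 6 markers of primitive endoderm summed to 21.2 to 24.9 CPM in the KO-labelled libraries, 13.1 to 19.1 CPM with ethanol and 11.2 to 13.1 CPM in the 4OHT control, and 3 of them rose against the ethanol control and 4 against the 4OHT control. The 5 markers of trophectoderm summed to 4.78 to 8.57 CPM, 3.05 to 5.01 CPM and 2.83 to 4.65 CPM in the same order, with 1 rise against ethanol and 3 against the 4OHT control. Among the rises of these lists, Sox17 (endoderm) and Elf5 (trophectoderm) passed the filter on low counts only through the KO-labelled libraries. The 4 neural markers found summed to 45.5 to 58.4 CPM, 36.4 to 48.6 CPM and 27.7 to 32.2 CPM, and the 6 fibroblast markers to 18.6 to 18.8 CPM, 15.8 to 18.7 CPM and 14.0 to 15.0 CPM. Both sums overlapped the ethanol control and lay above the 4OHT control. Among the neural markers Neurod1 rose against ethanol (0.56 on the log2 scale, edgeR adjusted p = 0.0088) and the 4OHT control (1.87, adjusted p = 9.0e-07), and against the 4OHT control Pax6 fell. Of 3 fibroblast markers tested 2 rose and 1 fell against the 4OHT control. The sums of 5 mesoderm markers overlapped between the groups. Of all these markers none was at 0 in every library. The part of these markers and of the reads without a gene in the results below was not tested. In bulk samples fewer cells of a type and less RNA per cell cannot be told apart.

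Most of the p53 target genes were higher in the KO-labelled libraries than in either control. Against the ethanol control 30 of 36 rose, with a median log2 fold change of 0.69 over all 36, where the median over all tested genes was 0.01. Over all tested genes 13% rose in this comparison (edgeR, Benjamini-Hochberg adjusted p under 0.05). At least 2-fold rises numbered 10 of 36, against 2.83% of all tested genes. Fas, counted among these rises, passed the filter on low counts only through the KO-labelled libraries. None of the 36 fell by edgeR at the adjusted threshold, none was lower at an unadjusted p under 0.05, and DESeq2 called 0 lower as well. Over all tested genes 14.2% fell. Scaling by library totals alone turned the 2110 rises and 2307 falls over all genes into 3038 and 1527, and 31 of the 36 genes then rose. Against the 4OHT control 30 of 36 rose and 1 fell, with a median of 0.73 against 0.02 over all tested genes, of which 19.1% rose and 19.8% fell. Here 11 rose at least 2-fold, as did 4.19% of all tested genes. Library totals turned the 3103 rises and 3216 falls over all genes into 4215 and 2328. These comparisons share the KO-labelled libraries and are not independent of each other. Single libraries are named below by the replicate numbers of the labels. In 26 of the 36 genes each labelled KO library lay above all 6 control libraries, a pattern seen in 13.5% of all tested genes. The reverse pattern was found in 0 of the 36 and in 13.1% of all tested genes. The genes were picked as p53 targets with earlier results of these data known, so these counts describe the set and are no separate evidence.

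**Figure D1:**
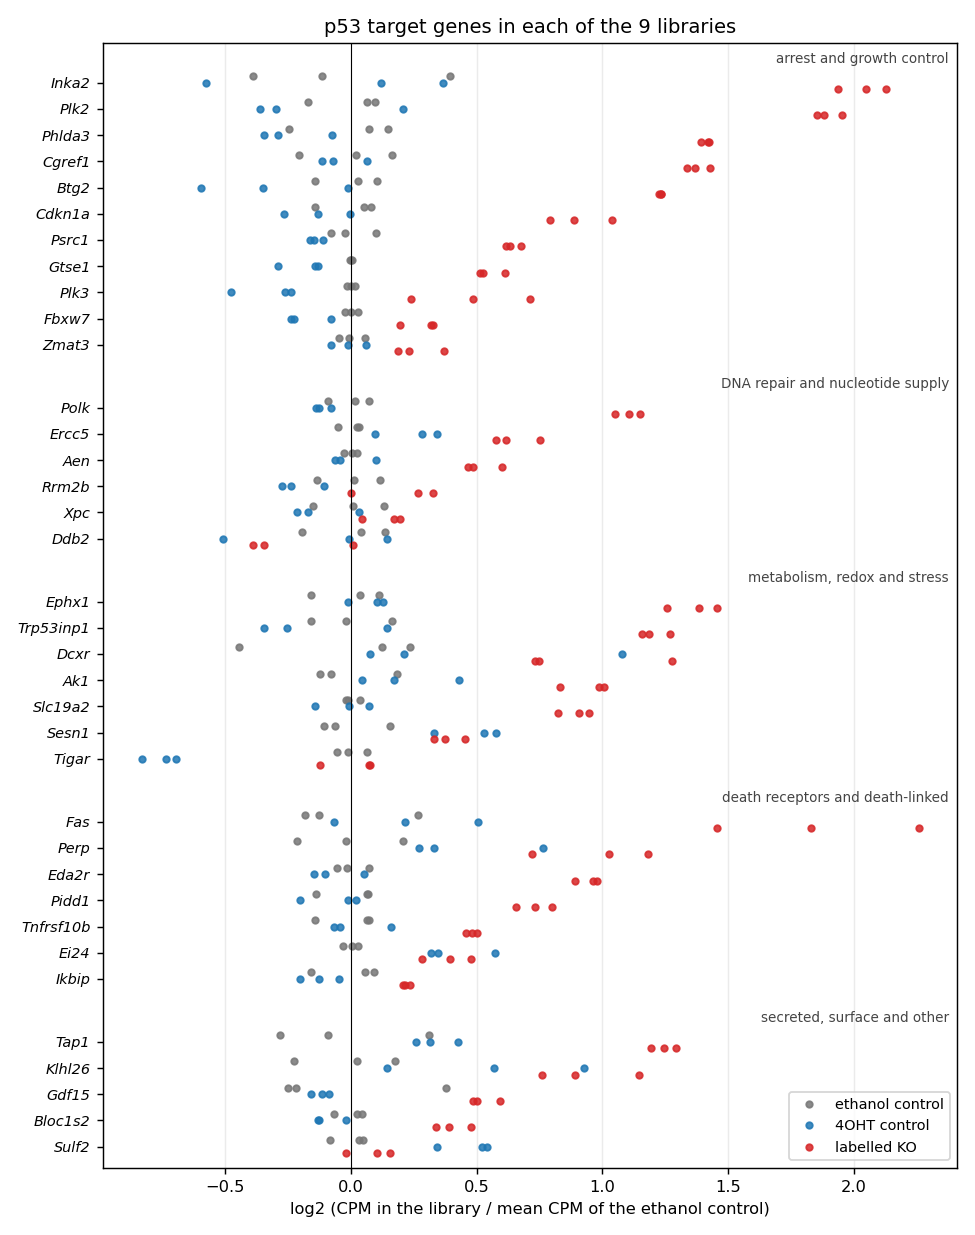
Level of each p53 target gene in each library. The x axis is the log2 ratio of a library's CPM to the mean CPM of the ethanol control, each point is 1 library, and genes are grouped by role and ordered by fold change. In 26 of 36 genes the 3 labelled KO points (red) lie to the right of all 6 control points.

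**Figure D2:**
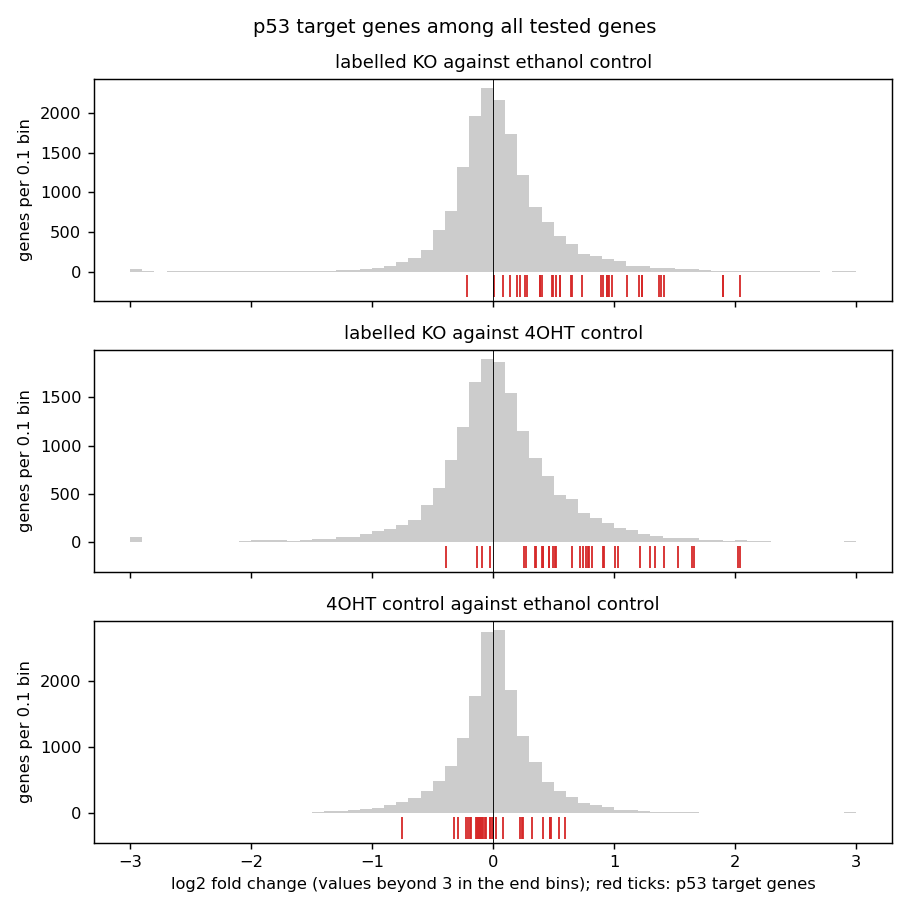
Log2 fold changes of the p53 target genes (red ticks) under the distribution over all 16224 tested genes (grey bars, genes per bin of 0.1) in the 3 comparisons. The ticks lie mostly to the right of 0 in both comparisons of the KO-labelled libraries, with medians of 0.69 and 0.73, and around 0 between the controls, with a median of -0.06.

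The promoters of the set were searched for the p53 consensus decamer, the 10-base unit of which a response element holds a pair, because the genes are grouped by their regulator. RefSeq start sites (build GRCm38.p6) gave 45 windows of 300 bases, 250 before and 50 after a start, for 29 of the 36 genes. The decamer reads the same on both strands, so a match counts for both. An exact decamer was found in 7 of the 29 genes (24.1%), against 9.55% of the 27025 genes in the table. Genes with more windows have more room for a match. By window it was 8 of 45 (17.8%), against 8.36% of all 32851 windows. Cdkn1a alone among the 29 genes held an exact pair with at most 13 bases between the units, as did 0.074% of all genes. With at most 1 mismatch over the pair, a limit chosen after the matches were seen, it was 4 of 29 (13.8%: Cdkn1a, Gtse1, Inka2 and Polk) and 1.24% of all genes. By window these shares were 8.89% and 1.09%. The stretches below show these units in capitals, because they are where the promoters of this set carry the letters of the site. The first is the 100 bases before the upstream start of Cdkn1a (chr17:29090879-29090978, plus strand). There the 10 bases directly after the second unit differ from the decamer at 1 position. The others are each unit with 10 bases on either side.
Cdkn1a: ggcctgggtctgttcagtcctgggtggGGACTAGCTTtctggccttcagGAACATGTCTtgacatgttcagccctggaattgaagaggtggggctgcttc
Gtse1 (chr15:85859945-85859974, plus strand): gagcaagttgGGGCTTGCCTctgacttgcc
Inka2 (chr3:105705367-105705396, plus strand): ctgtctgcccGGGCTTGTCTgccagcaggg
Polk (chr13:96519399-96519428, minus strand): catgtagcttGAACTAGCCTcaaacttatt
Aen (chr7:78895927-78895956, plus strand): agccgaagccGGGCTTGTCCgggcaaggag
Sesn1 (chr10:41887256-41887285, plus strand): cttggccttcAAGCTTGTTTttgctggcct
Ei24 (chr9:36797325-36797354, minus strand): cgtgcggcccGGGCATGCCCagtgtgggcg
All 7 of these genes rose against the ethanol control, but 26 of the 29 genes with a window did. A match describes letters and not binding, and these coordinates belong to GRCm38, whereas the submitters' processing notes name mm9. In Gtse1, Inka2, Polk and Sesn1 the unit lies in the window of a downstream start, and the window of the upstream start held none. Outside the windows, introns included, no element was searched for.

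Genes of arrest and growth control rose throughout. All 11 rose against the ethanol control, with a median log2 fold change of 0.91, and all 11 rose against the 4OHT control, with a median of 1.04. Cdkn1a encodes p21, the inhibitor of cyclin-dependent kinases through which p53 halts the cell cycle. It had 30.4, 26.0 and 29.8 CPM with ethanol, 49.7, 53.1 and 59.0 CPM in the KO-labelled libraries and 28.6, 23.9 and 26.2 CPM in the 4OHT control. The KO-labelled libraries lay above all controls, and the controls overlapped each other. The rise was 1.88-fold (log2 fold change 0.91, SE 0.09, edgeR adjusted p = 1.1e-06).

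Larger rises than that of Cdkn1a were measured in kinase regulators and kinases of this group. Plk2, a polo-like kinase induced by stress, had 29.3, 24.8 and 29.9 CPM with ethanol, 103, 101 and 108 CPM in the KO-labelled libraries and 32.3, 21.8 and 22.8 CPM in the 4OHT control. Its log2 fold changes were 1.90 (SE 0.13, edgeR adjusted p = 9.5e-07) and 2.02 (SE 0.13, adjusted p = 3.3e-07) against the ethanol and the 4OHT control. Inka2, an inhibitor of the kinase Pak4, had the highest log2 fold change of the 36 genes, 2.04 (SE 0.21, adjusted p = 2.9e-06), from a low level. Its CPM were 2.64, 1.53 and 1.85 in the ethanol control, 8.78, 8.32 and 7.70 in the KO-labelled libraries and 2.18, 2.58 and 1.34 in the 4OHT control, from 28 to 207 counts. Phlda3, which holds back the kinase Akt, had 24.5, 18.6 and 23.2 CPM, then 58.0, 59.4 and 59.2 CPM, then 21.0, 17.4 and 18.1 CPM in the same order. All 3 genes had KO-labelled libraries above every control library, and for Phlda3 these 3 libraries were close to each other (SD 0.752 CPM). Its rise was 2.67-fold (log2 fold change 1.42, SE 0.09, adjusted p = 1.3e-08).

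Btg2, an antiproliferative protein that promotes mRNA decay, had 29.7, 26.4 and 31.3 CPM with ethanol, 68.0, 68.4 and 68.4 CPM in the KO-labelled libraries and 28.9, 19.2 and 22.8 CPM in the 4OHT control (log2 fold change 1.23 against ethanol, SE 0.11, edgeR adjusted p = 2.9e-06). Cgref1, a calcium-binding growth regulator, had 3.69, 3.15 and 4.06 CPM, then 9.17, 9.39 and 9.78 CPM, then 3.79, 3.35 and 3.46 CPM (log2 fold change 1.39, SE 0.13, adjusted p = 1.3e-06). Neither gene had a control library near the labelled KO range. Other genes of this group rose less. Plk3, another polo-like kinase, rose by 0.49 on the log2 scale (adjusted p = 0.0024), and its KO-labelled libraries spread from 52.5 to 72.9 CPM. Fbxw7, the substrate receptor of a ubiquitin ligase that removes cyclin E and Myc, rose by 0.28 (adjusted p = 0.0032), and the RNA-binding zinc finger gene Zmat3 rose by 0.26 (adjusted p = 0.0033).

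The list also holds Gtse1 and Psrc1, microtubule-associated proteins of dividing cells that p53 is known to induce. Gtse1 had 193, 193 and 194 CPM with ethanol, 278, 296 and 276 CPM in the KO-labelled libraries and 176, 175 and 158 CPM in the 4OHT control. Psrc1 had 103, 99.1 and 112 CPM, then 161, 162 and 167 CPM, then 97.0, 93.6 and 94.5 CPM. In both genes the KO-labelled libraries were highest and the 4OHT control lowest, with no overlap between groups. The log2 fold changes against ethanol were 0.55 (SE 0.05, edgeR adjusted p = 1.7e-06) for Gtse1 and 0.64 (SE 0.05, adjusted p = 2.9e-07) for Psrc1. Per kilobase of exon, Gtse1 was the most abundant of the 36 genes in each group (70.4, 103 and 61.9 CPM per kb in ethanol control, labelled KO and 4OHT control). Among 10 general genes of G2 and mitosis Aurka alone rose against ethanol (0.17 on the log2 scale, adjusted p = 0.03), Ccna2 fell (-0.25, adjusted p = 0.0013) and Plk1 had -0.16 (adjusted p = 0.069; 0.0023 in the fit with a replicate block), and the median of these 10 was -0.06. The call of Aurka ended with DESeq2 (adjusted p = 0.083), in the unfiltered fit (0.058), and without ethanol library 1 (0.13) or 2 (0.13) and without KO-labelled library 1 (0.057), 2 (0.12) or 3 (0.058). Plk1 was also called in the unfiltered fit (0.043) and without ethanol library 1 (0.0097). Of these 10 genes 5 fell against the 4OHT control, where 19.8% of all tested genes did, and their median was -0.09. They were Bub1 (-0.37, adjusted p = 2.2e-05), Top2a (-0.22, adjusted p = 0.0021), Ccna2 (-0.21, adjusted p = 0.0026), Plk1 (-0.27, adjusted p = 0.0038) and Cdk1 (-0.17, adjusted p = 0.037), while Aurka had -0.02 (adjusted p = 0.79; 0.06 on the log2 scale with library totals). The call of Cdk1 ended on library totals (0.28), when these groups alone were fitted (0.059), without KO-labelled library 1 (0.094) or 3 (0.13) and without 4OHT library 2 (0.18). Between the controls 3 of the 10 were higher in the 4OHT control (30%, against 9.66% of all tested genes) and 0 lower. The 3 were Bub1 (0.28, edgeR adjusted p = 0.0007), Aurka (0.19, adjusted p = 0.023) and Top2a (0.15, adjusted p = 0.039). These calls were not followed through the alternatives. Bub1, Top2a and Cdk1 were not called in the KO-labelled libraries against ethanol.

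Genes of DNA repair and nucleotide supply were mixed. Of 6 genes 3 rose against the ethanol control (median log2 fold change 0.36), and 5 rose against the 4OHT control (median 0.41). Polk, a polymerase that copies past damaged bases, had 14.3, 15.4 and 16.1 CPM with ethanol, 31.6, 32.9 and 34.0 CPM in the KO-labelled libraries and 14.5, 14.0 and 13.9 CPM in the 4OHT control. Its KO-labelled libraries lay far above every control library. The log2 fold change was 1.10 (SE 0.08, edgeR adjusted p = 2.3e-08). Ercc5, the XPG nuclease of nucleotide excision repair, rose by 0.65 (adjusted p = 1.3e-05), and the exonuclease gene Aen by 0.52 (adjusted p = 7.3e-06).

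The remaining repair genes did not rise against the ethanol control. Ddb2, which recognises ultraviolet damage, had 7.55, 6.43 and 8.07 CPM with ethanol, 7.38, 5.79 and 5.62 CPM in the KO-labelled libraries and 7.30, 5.17 and 8.12 CPM in the 4OHT control. It was the only one of the 36 genes with a negative log2 fold change against the ethanol control, and its groups overlapped (-0.22, SE 0.16, edgeR adjusted p = 0.35). Its exons overlap those of Acp2 on the other strand by 652 bases, and no source used here says whether counting used strand. Xpc, the damage sensor of nucleotide excision repair, had 28.4, 31.7 and 34.5 CPM, then 32.5, 36.1 and 35.5 CPM, then 28.0, 27.1 and 32.2 CPM. It was not called against ethanol (0.14, adjusted p = 0.24) and rose against the 4OHT control (0.25, adjusted p = 0.029). That call ended with DESeq2 (adjusted p = 0.066), without KO-labelled library 2 (0.10) or 3 (0.074) and without 4OHT library 1 (0.09) or 2 (0.12). Rrm2b, the p53-inducible subunit of ribonucleotide reductase, had 11.0, 10.2 and 9.20 CPM, then 12.2, 10.1 and 12.7 CPM, then 9.39, 8.58 and 8.36 CPM. A similar gene model outside the count tables, Gm8616, matches 1051 of its bases at 96.1%. Rrm2b had a log2 fold change of 0.20 against ethanol (adjusted p = 0.21), where the groups overlapped, and rose by 0.41 against the 4OHT control (adjusted p = 0.011), where they did not.

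In the group of metabolism, redox and stress genes 6 of 7 rose against the ethanol control (median log2 fold change 0.94) and 5 of 7 against the 4OHT control (median 0.77). Ephx1, an epoxide hydrolase that detoxifies reactive compounds, had 11.9, 10.4 and 12.6 CPM with ethanol, 30.3, 27.8 and 31.9 CPM in the KO-labelled libraries and 12.7, 11.5 and 12.5 CPM in the 4OHT control. Slc19a2, a thiamine transporter, had 56.9, 54.8 and 55.0 CPM, then 104, 107 and 98.3 CPM, then 58.4, 55.3 and 50.3 CPM. For both the controls overlapped each other and the KO-labelled libraries stood apart, with log2 fold changes of 1.37 (SE 0.09, edgeR adjusted p = 1.7e-08) and 0.89 (SE 0.06, adjusted p = 2.1e-08). Trp53inp1, a stress protein linked to autophagy, rose from 155 ± 17.4 to 356 ± 14.0 CPM (SD, n = 3; log2 fold change 1.20, edgeR adjusted p = 0.00012). Ak1, an adenylate kinase that balances ATP, ADP and AMP, rose by 0.94 (adjusted p = 1.2e-05).

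Dcxr, a reductase of sugars and dicarbonyls, was the least certain rise of this group in the fit without a replicate block. It had 7.28, 4.55 and 6.75 CPM with ethanol, 15.0, 10.4 and 10.3 CPM in the KO-labelled libraries and 13.1, 7.17 and 6.53 CPM in the 4OHT control. The log2 fold change against ethanol was 0.96 (SE 0.30, edgeR adjusted p = 0.043, and 5.5e-07 in the fit with a replicate block). The call at 0.043 ended without ethanol library 1 (adjusted p = 0.066), 2 (0.14) or 3 (0.085). That call also ended without KO-labelled library 1 (0.13), 2 (0.072) or 3 (0.059) and without 4OHT library 2 (0.057). Against the 4OHT control, whose replicate 1 lay within the labelled KO range, it was not called (0.41, adjusted p = 0.30). It was called there in the fit with a replicate block (0.0032), in the unfiltered fit (0.0072) and without 4OHT library 1 (0.81, adjusted p = 0.0084).

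Among receptors and other death-linked genes 6 of 7 rose against each control, with median log2 fold changes of 0.73 and 0.51. Eda2r, a receptor of the tumour necrosis factor family that binds ectodysplasin A2, had the smallest p-value of the 36 genes against the ethanol control in the fit without a replicate block. Slc19a2 had a smaller one with the block (adjusted p = 5.3e-17 against 1.9e-16), and Phlda3 against the 4OHT control. Eda2r had 63.1, 57.7 and 59.3 CPM with ethanol, 111, 117 and 118 CPM in the KO-labelled libraries and 62.2, 55.9 and 54.1 CPM in the 4OHT control. The controls overlapped and the KO-labelled libraries did not reach them (log2 fold change 0.94, SE 0.06, edgeR adjusted p = 1.0e-08). The death receptor gene Fas was near the limit of detection, with 5, 5 and 5 counts in the ethanol control, 28, 14 and 17 counts in the KO-labelled libraries and 5, 6 and 6 counts in the 4OHT control. All labelled KO counts exceeded the controls, and the log2 fold change of 1.90 had an SE of 0.36 (adjusted p = 0.0013). Fas passed the filter on low counts only through the KO-labelled libraries, so its call is no separate evidence of a rise. With a filter at 1 CPM in 3 libraries Fas was not tested, and 29 genes of the set rose against ethanol. Tnfrsf10b, the receptor of the death ligand TRAIL, rose by 0.48 (adjusted p = 0.00015). It shares 405 bases at 97.5% identity with the gene model Gm15574, which is also counted, so its value is uncertain. Pidd1, the scaffold of the PIDDosome, rose by 0.73 (adjusted p = 5.5e-06).

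Perp, a membrane protein of desmosomes and of p53-dependent death, had 17.3, 14.8 and 13 CPM with ethanol, 30.7, 34.1 and 24.8 CPM in the KO-labelled libraries and 25.5, 18.9 and 18.2 CPM in the 4OHT control. It rose by 0.98 against ethanol (edgeR adjusted p = 0.00078) and by 0.51 against the 4OHT control (adjusted p = 0.019), whose replicate 1 overlapped the KO-labelled libraries. The second call ended without KO-labelled library 1 (adjusted p = 0.062) or 2 (0.074) and without 4OHT library 2 (0.075) or 3 (0.063). Ikbip, a membrane protein of the endoplasmic reticulum, had 9.88, 11.8 and 11.5 CPM, then 12.8, 12.7 and 13 CPM, then 10.1, 9.58 and 10.7 CPM. Its KO-labelled libraries lay above all controls by a small margin, with a log2 fold change of 0.22 against ethanol (adjusted p = 0.11). The replicate block brought this p to 0.046, and scaling by library totals brought it to 0.037. With that block 31 of the 36 genes rose against ethanol, as did 20.4% of all tested genes. Against the 4OHT control Ikbip rose by 0.34 (adjusted p = 0.013), and this call ended without 4OHT library 2 (0.051).

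Of the 5 secreted, surface and other genes 4 rose against ethanol (median log2 fold change 0.55), and 3 rose and 1 fell against the 4OHT control (median 0.49). Tap1, the peptide transporter that loads MHC class I molecules, rose from 3.63 ± 0.783 to 8.61 ± 0.296 CPM (SD, n = 3; log2 fold change 1.23, edgeR adjusted p = 1.6e-05), and it shares 212 exon bases with Psmb9 on the other strand. Bloc1s2, a subunit of a complex that sorts cargo to lysosome-related organelles, rose by 0.40 (adjusted p = 0.00088), and it has a pseudogene, Bloc1s2-ps, with 99.8% identity over 432 bases. Gdf15, a secreted stress cytokine, had 59, 60 and 68 counts in the ethanol control, 111, 90 and 85 counts in the KO-labelled libraries and 59, 50 and 60 counts in the 4OHT control. It rose by 0.55 against ethanol (adjusted p = 0.028) and by 0.65 against the 4OHT control (adjusted p = 0.0084). The first call ended with DESeq2 (adjusted p = 0.068), without ethanol library 1 (0.11) or 2 (0.14) and without KO-labelled library 1 (0.093), 2 (0.052) or 3 (0.052).

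**Figure D3:**
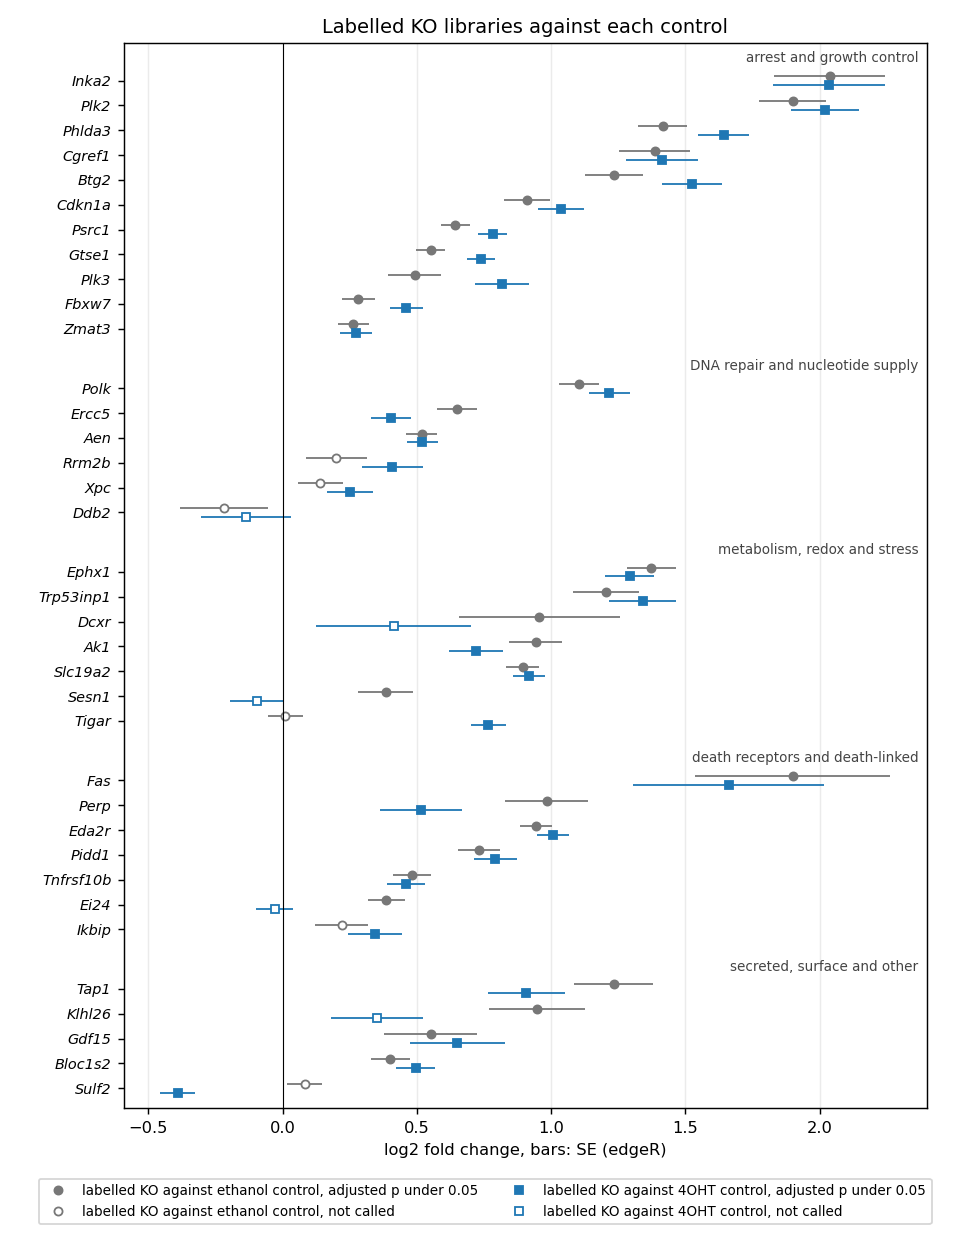
Log2 fold changes (x axis) of the 36 genes in the KO-labelled libraries against the ethanol control (grey circles) and against the 4OHT control (blue squares), with bars of 1 SE. Filled symbols had an edgeR adjusted p under 0.05. Most pairs of symbols lie close together, while Tigar (0.01 and 0.77), Sulf2 (0.08 and -0.39), Sesn1 (0.38 and -0.10) and Ei24 (0.39 and -0.03) lie apart.

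The controls were also compared with each other. Of the 36 genes, 5 were higher and 3 lower in the 4OHT control than in the ethanol control, where 9.66% of all tested genes were higher and 8.75% lower. The shares of the 36 genes, 13.9% and 8.33%, were near these backgrounds. Of the 11 genes of arrest and growth control, 10 had negative log2 fold changes here (median -0.14) and 2 were called lower. Over all 16224 tested genes 7984 were negative. With the replicate block 8 of the 36 genes were higher and 7 lower, against 17% and 15.8% of all tested genes. The genes added by the block were Ak1 (0.23, adjusted p = 0.0036), Dcxr (0.53, 0.0023) and Perp (0.48, 0.00013) upward, and Btg2 (-0.29, 0.028), Psrc1 (-0.14, 0.011), Fbxw7 (-0.18, 0.0062) and Phlda3 (-0.23, 0.026) downward.

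Tigar, a phosphatase that lowers glycolytic flux, had 87.5, 83.0 and 80.4 CPM with ethanol, 87.8, 88.2 and 76.8 CPM in the KO-labelled libraries and 51.6, 50.2 and 47.0 CPM in the 4OHT control. The groups of the floxed line overlapped, and the 4OHT control lay below both. It was 0.75 lower in the 4OHT control than in the ethanol control on the log2 scale (log2 fold change -0.75, SE 0.07, edgeR adjusted p = 1.1e-06). The KO-labelled libraries therefore differed from the 4OHT control (0.77, adjusted p = 2.0e-07) and not detectably from the ethanol control (0.01, SE 0.06, adjusted p = 0.92). Sulf2, an enzyme that trims sulfates from heparan sulfate outside the cell, had 150, 138 and 151 CPM, then 163, 144 and 157 CPM, then 213, 186 and 210 CPM. It was highest in the 4OHT control (0.47, adjusted p = 8.8e-05), was not called in the KO-labelled libraries against ethanol (0.08, adjusted p = 0.37) and fell against the 4OHT control (-0.39, adjusted p = 0.00018). Its exons overlap those of Ncoa3 on the other strand by 154 bases.

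Sesn1, Ei24 and Klhl26 were higher in the KO-labelled libraries than in the ethanol control, while their ranges in the KO-labelled and 4OHT control libraries overlapped. Sesn1, a sestrin that restrains the growth kinase complex mTORC1, had 12.2, 10.1 and 10.5 CPM with ethanol, 14.1, 14.9 and 13.7 CPM in the KO-labelled libraries and 16.3, 15.7 and 13.7 CPM in the 4OHT control. It rose by 0.38 against ethanol (edgeR adjusted p = 0.011, or 0.066 without ethanol library 2), and was 0.48 higher in the 4OHT control than in ethanol (adjusted p = 0.0038). Ei24, a membrane protein of the endoplasmic reticulum linked to autophagy, had 95.3, 97.6 and 99.2 CPM, then 118, 136 and 128 CPM, then 124, 145 and 121 CPM. The KO-labelled libraries and the 4OHT control overlapped (log2 fold change -0.03, adjusted p = 0.76), and each lay above the ethanol control (0.39, adjusted p = 0.00069, and 0.42, adjusted p = 0.00052). Klhl26, a Kelch family protein, had 10.5, 8.83 and 11.7 CPM, then 19.2, 17.5 and 22.9 CPM, then 19.6, 11.4 and 15.3 CPM. It rose by 0.95 against ethanol (adjusted p = 0.0025) and was not called against the 4OHT control (0.35, adjusted p = 0.13). The fit with a replicate block (0.0048), where 32 of the 36 genes and 25.5% of all tested genes rose, called it, as did the unfiltered fit (0.0067) and the fit without 4OHT library 1 (0.56, adjusted p = 0.0096).

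Klhl26 was also higher in the 4OHT control than in the ethanol control (0.60, edgeR adjusted p = 0.042), and Ercc5 was higher (0.25, adjusted p = 0.035) while Plk3 (-0.32, adjusted p = 0.041) and Gtse1 (-0.19, adjusted p = 0.023) were lower. In the fits without a replicate block these 4 calls rested on few libraries. With the block the edgeR adjusted p was 0.00028 for Klhl26, 0.0022 for Ercc5, 0.00064 for Plk3 and 0.00027 for Gtse1. No library was left out of the blocked fit. The call of Klhl26 ended in the fit of the groups compared (adjusted p = 0.057), without ethanol library 1 (0.11), 2 (0.16) or 3 (0.052), without KO-labelled library 1 (0.065) or 2 (0.056) and without 4OHT library 1 (0.12) or 3 (0.099). The call of Ercc5 ended without any ethanol control library (0.067, 0.14 and 0.07 for replicates 1 to 3) and without 4OHT library 1 (0.14) or 3 (0.11). The call of Plk3 ended without ethanol library 1 (0.094), 2 (0.10) or 3 (0.086), KO-labelled library 1 (0.052) or 4OHT library 2 (0.07) or 3 (0.13). The call of Gtse1 ended without ethanol library 1 (0.053), 2 (0.064) or 3 (0.063) or 4OHT library 3 (0.12). The calls of Tigar, Sulf2, Sesn1 and Ei24 between the controls held in all 16 alternatives.

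**Figure D4:**
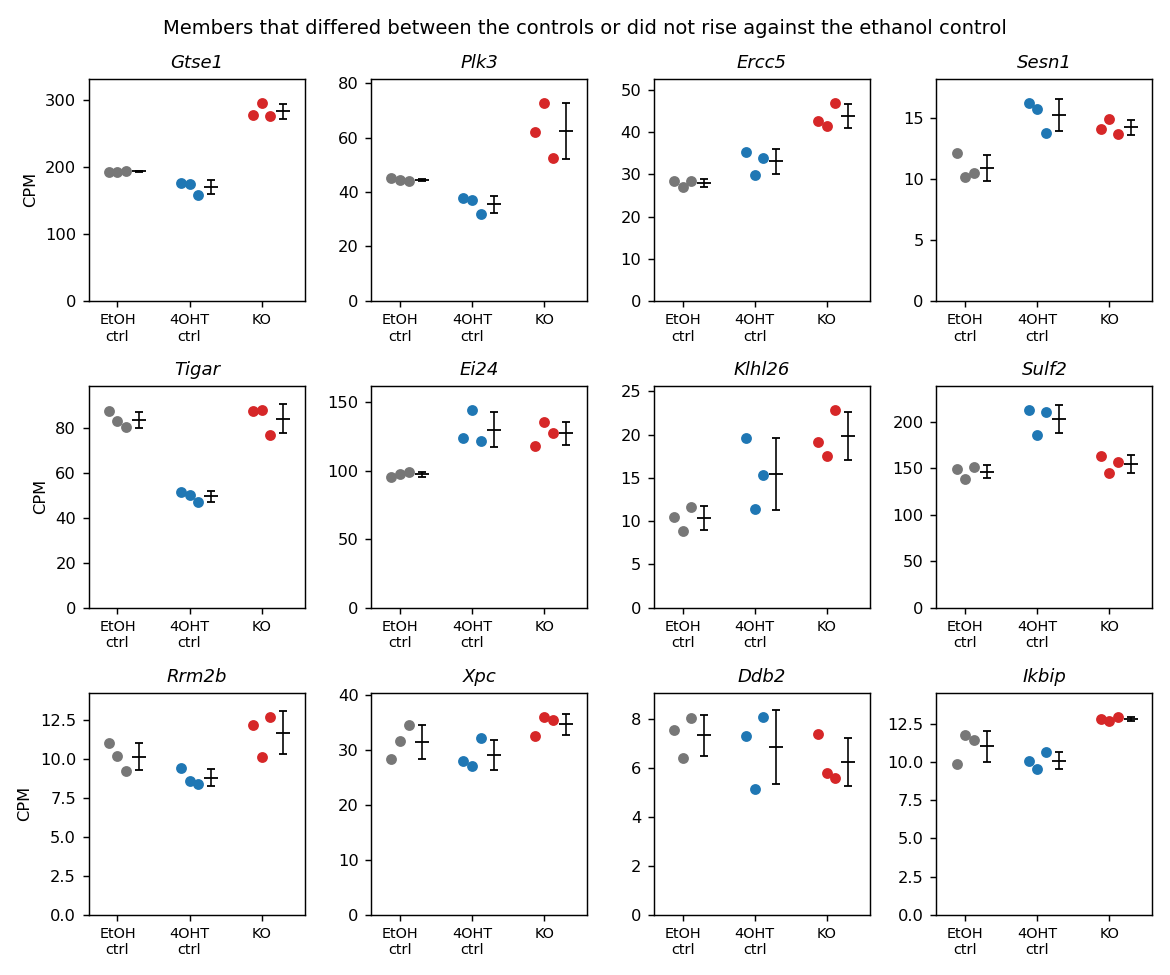
CPM (y axis, from 0) of the 8 genes that differed between the controls (Gtse1 to Sulf2) and of 4 more that did not rise against the ethanol control (Rrm2b, Xpc, Ddb2 and Ikbip), by group. Points are libraries and the bars beside them mean and SD (n = 3). Tigar is low in the 4OHT control alone, at 47.0 to 51.6 CPM, and Ei24 is higher in both groups given 4OHT than in the ethanol control.

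The same libraries were read for other genes of the pathway. These were listed by role with earlier results of these data known, so their counts are no separate evidence. Over all tested genes 13% rose and 14.2% fell against ethanol, and 19.1% rose and 19.8% fell against the 4OHT control. The transcript of p53 itself, Trp53, had 660, 623 and 627 CPM with ethanol, 638, 655 and 568 CPM in the KO-labelled libraries and 665, 652 and 604 CPM in the 4OHT control. It was not called (log2 fold change -0.04, edgeR adjusted p = 0.67, or 0.03 on the log2 scale with library totals), and the measure does not cover p53 protein. Of 10 genes of p53 and its feedback 9 were tested, 5 rose against ethanol (55.6%) and 1 fell (11.1%), with a median of 0.46. The 4OHT control gave 6 rises (66.7%) and 1 fall (11.1%), with a median of 0.49. The rises against ethanol include Mdm2 (1.65, adjusted p = 1.6e-09), the p53-related factor gene Trp73 (1.62, adjusted p = 2.3e-08) and the cyclin gene Ccng1 (0.97, adjusted p = 4.2e-06). Of 8 apoptosis genes named as p53 targets 6 were tested. Of these 3 rose (50%) and 1 fell (16.7%) against the 4OHT control. Against ethanol 3 rose (50%), namely Pmaip1 (1.14, adjusted p = 3.0e-08), Apaf1 (0.64, adjusted p = 5.3e-05) and Bbc3 (0.70, adjusted p = 0.00045). Between the controls 3 of these 6 were lower in the 4OHT control (50%, against 8.75% of all tested genes) and 0 higher. Pmaip1 (-0.45, edgeR adjusted p = 0.0018) and Bbc3 (-0.41, adjusted p = 0.026) were among them. Of the 9 tested genes of p53 and its feedback 0 were called between the controls.

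Of 9 genes upstream of p53, mostly kinases and cofactors, 5 fell (55.6%) and 1 rose (11.1%) against the ethanol control, with a median log2 fold change of -0.21. Over all tested genes 14.2% fell and 13% rose. The gene of the 9 that rose was Cdkn2a, which encodes no kinase (0.58, edgeR adjusted p = 0.039), at 42 to 92 counts per library. Cdkn2a also rose against the 4OHT control (0.60, adjusted p = 0.026), and its calls were not followed through the alternatives. Falls against ethanol included the kinase gene Atr (-0.25, edgeR adjusted p = 0.005), Trp53bp1 (-0.21, adjusted p = 0.012) and Hipk2 (-0.25, adjusted p = 0.022). The calls of Trp53bp1 and Hipk2 ended with library totals (0.058 and 0.099). That of Trp53bp1 also ended without ethanol library 3 (0.051) or KO-labelled library 1 (0.054), and that of Hipk2 without ethanol library 1 (0.10) or KO-labelled library 2 (0.062). Of the same 9 genes 2 rose and 2 fell against the 4OHT control (22.2% each), near the 19.1% and 19.8% of all tested genes. Hipk2 was among those that rose there (0.23, adjusted p = 0.026), Atr fell (-0.19, adjusted p = 0.016) and Trp53bp1 was not called (-0.05, adjusted p = 0.55; 0.04 on the log2 scale with library totals). That rise of Hipk2 ended with DESeq2 (0.061), without KO-labelled library 1 (0.082) or 3 (0.084) and without 4OHT library 1 (0.10) or 2 (0.093). The fall of Atr ended with library totals (0.155), without KO-labelled library 2 (0.053) and without 4OHT library 3 (0.077). Between the controls 3 of the 9 genes were lower in the 4OHT control (33.3%, against 8.75% of all tested genes) and 0 higher. Hipk2 was among those lower (-0.47, edgeR adjusted p = 0.00037). A further list of 10 p53 targets, taken from outside the 36, was less uniform. Of these 3 rose against ethanol (30%, against 13% of all tested genes), with a median of 0.05. Against the 4OHT control 3 rose (30%, against 19.1% of all tested genes), with a median of 0.09. Between the controls 1 of the 10 was lower in the 4OHT control (10%, against 8.75% of all tested genes) and 0 higher. The genes of this list that rose against ethanol were Sesn2, a second sestrin (0.49, adjusted p = 3.1e-05), the growth arrest gene Gadd45a (0.46, adjusted p = 0.00044) and Rps27l (0.30, adjusted p = 0.0014). Rps27l is a ribosomal protein gene whose reads may be shared with near-identical copies.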

How the data were processed

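Each library has a deposited table of unnormalised counts for Ensembl genes, closed by 5 rows of unassigned reads. Per the submitters' processing notes the tools and build include mm9, STAR, cutadapt, HTSeq, edgeR, Bowtie 1.1.2, MACS2 and DiffBind, without roles. Per the labels' protocols, ribosomal RNA was depleted and libraries were directional. Whether strand was used in counting is unstated. The closing rows stayed out of totals and tests: 26.4% to 33.8% of reads had no feature and 0.78% to 0.908% were ambiguous. Symbols came from GENCODE M21 (32620 of 37310 rows matched), which also gave exon lengths, overlaps and near-identical copies.

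Counts were tested with edgeR 4.0.16 (R 4.3.3, limma 3.58.1): TMM scaling, filterByExpr by group, robust quasi-likelihood F tests in 1 fit of all 9 libraries (6 residual degrees of freedom), Benjamini-Hochberg over 16224 genes, call under 0.05. SE is the log2 fold change over the square root of F. Counts per pair of replicates differed by 4.98 to 16.7 times the sampling noise (chi-square per degree of freedom), so no library was a duplicate. KO-labelled library 3 gave 15.6 with library 1 and 16.7 with library 2 of its group, and every other pair lay at 4.98 to 7.55. Replicate numbers are shared by the groups, and the deviations of same-numbered libraries from their group means correlated at 0.109 to 0.311 in all pairs, so the numbers pair the libraries. The labels do not say what a number stands for. A replicate block is therefore among the alternatives. The others, all without the block, were RLE factors, library totals, DESeq2 1.42.0, other filters, the groups compared alone and leaving out each library. The fit was tested on simulated counts.

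The 36 genes and the other lists were chosen with earlier results of these data known. All 36 are named. Values per library are given for the 12 with the smallest p against ethanol, for Cdkn1a, for those that did not rise and for those that differed between controls by at least 0.5 on the log2 scale. A few further genes have theirs because a result turned on them, chosen after their values were seen: Dcxr, Perp, Fas, Gdf15, Sesn1 and Ei24. From each other pathway list Trp53, Mdm2, Ccng1 and up to 3 genes with the smallest p are named. Cdk1, Bub1, Top2a, Neurod1, Pax6 and Cdkn2a were added after their values were seen.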

Additional observations from a re-analysis of the deposited data

Results flagged for a closer look

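The counts do not tell where in the genome the reads assigned to no feature lie. These reads are outside the gene counts that were compared. They made up 33.3% ± 0.531 of reads in the labelled KO libraries (SD, n = 3) and 27.4% ± 0.866 in the 6 control libraries, a difference of 5.91 percentage points. All 3 labelled KO libraries were above all controls. An exact permutation test over the 84 splits of 9 libraries gave a two-sided p = 0.012, the smallest value these splits allow. That value follows from the separation, and the test pooled the controls and left out the replicate numbers. The difference was noticed in the files and then tested on the same values, so the p is no separate evidence. The part of these reads in the levels of the p53 target genes was not tested.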

How the results depend on the processing

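Of the 36 genes, those called upward against ethanol numbered 29 to 31 in the 7 alternatives that keep all libraries and 27 to 30 when 1 library was left out. Against the 4OHT control they numbered 29 to 32 and 27 to 31. The medians over the set ran from 0.64 to 0.76 and from 0.67 to 0.81. Between the controls, upward calls in the set went from 5 to 8 without a filter on low counts and to 8 with the replicate block, and downward calls from 3 to 7 with the block. Leaving out 1 library gave 3 to 6 upward (3 without ethanol control replicate 2 or 3 or 4OHT control replicate 1) and 1 to 8 downward, 8 without 4OHT control replicate 1, and 1 without ethanol control replicate 1 or 3 or 4OHT control replicate 3. Over all genes, calls against ethanol went from 2110 upward and 2307 downward to 3311 and 3625 with the block. With library totals downward calls numbered 1527 and upward calls 3038. Leaving out 1 library gave 1355 to 2132 upward and 1709 to 2427 downward, with the lowest upward counts without KO replicate 1 (1355) and ethanol control replicate 2 (1358). Between the controls, 1567 upward and 1420 downward became 2754 and 2569 with the block, and 1014 to 1583 and 960 to 1488 with a library left out (1014 without ethanol control replicate 2). The causes were not tested. Beyond the values in the results above, the block changed no other call of a member. Values near 0 that turned sign, none of them called, were Tigar against ethanol (-0.000543 with RLE factors, -0.012 with DESeq2, from -0.038 to 0.067 with a library left out) and Ei24 against the 4OHT control (0.053 with library totals, from -0.086 to 0.051 with a library left out). Trp53 turned against ethanol (0.034 with library totals, from -0.093 to 0.017) and against the 4OHT control (0.038, and from -0.095 to 0.012). Also against the 4OHT control, Trp53bp1 (0.036 with library totals, from -0.092 to 0.0031 with a library left out) and Aurka (0.062 with library totals) turned. The 5 counts of Fas in each ethanol control library limit the precision of its fold change.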
